A study of Mus musculus with 23 samples.

Results

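The tumors were divided by the level of the Trp53 transcript. Of 23 primary mammary tumors from Brca1-deficient mice, 9 had a Trp53 level of 4 or more on the log2(FPKM + 1) scale (Trp53-high) and 10 had a level below 3 (Trp53-low), and the 4 tumors between these limits were left out. FPKM divides a gene's fragments by its length and by the size of its library, so a value does not show how many reads lie behind it and the depth is unknown. All 23 tumors share 1 label group: Brca1-deficient genotype, mixed strain and primary tumor tissue, with 1 bulk RNA-seq library each. Both groups therefore carry Brca1 loss, which the study's methods describe as Cre recombinase under the MMTV promoter, active in mammary epithelium, acting on a floxed Brca1 gene (Brca1 fl/fl). Of its 23 tumors, the study counts 10 from mice with Brca1 loss alone. The rest came from mice that also carried a floxed Trp53 allele (Trp53 fl/+). The study's own material gives a genotype per tumor but the deposited labels do not, so it was not used here. The part of this genotype in the Trp53 level and in the differences between the groups was not tested. Ages are not in the labels. The 9 Trp53-high tumors carry 8 distinct title numbers and the 10 Trp53-low tumors 8 as well, and nothing in the labels says that tumors sharing a number came from separate mice, so a p-value here reflects only how these samples spread, which may be technical in part.

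Trp53 encodes p53, a transcription factor that is held at a low protein level by the ubiquitin ligase Mdm2 and that accumulates after DNA damage. It then switches on genes for cell cycle arrest, such as Cdkn1a, for apoptosis, such as Bax and Bbc3, and for its own removal, such as Mdm2. Brca1 acts in homologous recombination, which mends DNA breaks, and loss of p53 is a frequent companion of Brca1 loss in mammary tumors. The activity of p53 is set mainly at the protein level, so a transcript level is not a measure of it.

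The groups were selected on the measured Trp53 level, so its values are a description and were not tested. Trp53 (ENSMUSG00000059552.13, chromosome 11, 69580359 to 69591873 on the plus strand of GRCm38) ran from 4.23 in X153T to 6.54 in X2265T in the Trp53-high tumors, with a median of 5.19, and from 1.32 in X370T to 2.88 in X1418T in the Trp53-low tumors, with a median of 2.32. As FPKM, the medians were 35.5 and 4.08. The tumors nearest to the limits were X153T, at 4.23, and X92T, at 4.32, just inside the upper group, X731T, at 3.86, just outside it, X1418T, at 2.88, just inside the lower group, and X4351T, at 3.37, the lowest of those left out. The levels therefore form a near continuous series rather than separate clusters, as the plot of Trp53 by tumor shows. Where along Trp53 the reads fell was not analysed here.

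**Figure D1:**
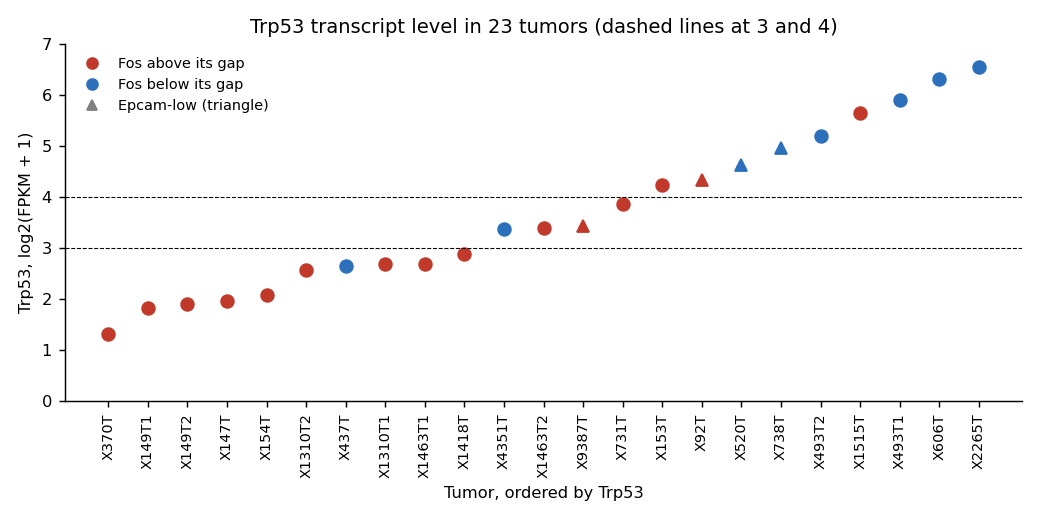
Trp53 level, log2(FPKM + 1), in each of the 23 tumors, ordered by level, with dashed lines at the limits 3 and 4. Each point is 1 tumor; red points have Fos above the gap in its distribution and blue points below it, and triangles mark Epcam-low tumors. Of the 9 Trp53-high tumors 6 are blue, and of the 10 Trp53-low tumors 1 is blue.

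The split on Trp53 overlapped the level of Fos, the immediate-early gene whose product is part of the AP-1 transcription factor. Over the 23 tumors Fos had no value between 5.37 and 8.16. It lay below this gap in 6 of 9 Trp53-high tumors and in 1 of 10 Trp53-low tumors, X437T. The Trp53-high tumors above the gap were X92T, X153T and X1515T. Epcam, the epithelial adhesion gene, gave a further imbalance: it was below its own gap (3.10 to 6.18) in X520T, X738T and X92T, all Trp53-high, where it was listed at 0, at 2.02 and at 3.10, and in none of the Trp53-low tumors. In the remaining 16 tumors of both groups the epithelial marker was present, at 6.18 or more. In X149T2, a Trp53-low tumor, 72.7% of the summed FPKM belonged to short non-coding RNA genes, and in the other members of both groups the share was 4.88% to 47.3%. The main results are therefore also given with Fos as a covariate, among the tumors above the Fos gap or without the Epcam-low tumors.

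Of 12040 genes tested, 54 were higher (0.449%) and 10 lower (0.0831%) in Trp53-high than in Trp53-low tumors at an adjusted p below 0.05 (limma on log2(FPKM + 1), two-sided, Benjamini-Hochberg). Without adjustment, 16% of the genes were higher and 7.58% lower at p below 0.05. The differences of called genes ran from 0.75 to 6.93 log2 units upwards and from 0.91 to 7.57 downwards. The median difference over all genes was 0.16, and it was -0.02 after scaling each library to its upper quartile, under which 31 genes were called higher and 40 lower. A difference of the size of that shift thus has no settled direction, and the balance of higher to lower calls depends on the scaling. With Fos as a covariate no gene passed the threshold in either direction (smallest adjusted p = 0.763), while 2.6% were higher and 3.82% lower at an unadjusted p below 0.05. Among the tumors above the Fos gap, 3 Trp53-high against 9 Trp53-low, no gene passed either (smallest adjusted p = 0.0958), with 510 genes higher and 582 lower without adjustment. Without the 3 Epcam-low tumors 9 genes were called higher and 1 lower. With title number as a random block, since pairs of tumors within a group share a number, 8 were called higher and 1 lower, and with 1 tumor per number 1 and 0. Of the genes described, those called with the block were Camta2, Cd72, Clec4a1, Clec4a3, Man2b1, Mir692-1, Wdr81 and Mir1938, and the 55 called genes that missed the threshold there had an adjusted p of 0.0624 to 0.0997.

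Of the 54, 9 had a mean of at least 1 FPKM in the Trp53-high but not in the Trp53-low tumors: Clec4a1, Clec4a3, Dmrta2, Fam219aos, Il21r, Mir7115, Rnf135, Rnf157 and Zmat3. These passed the filter on low values through the group in which they are high, so their calls are a description and carry no weight as a count. Markers of other tissues were examined without adjustment at p below 0.05. Of skeletal muscle genes 3 of 6 (50%) were higher, of endothelial genes 5 of 11 (45.5%) and of erythroid genes 1 of 4 (25%). None was lower, against 16% higher and 7.58% lower of all genes. The erythroid count is 1 gene and is not read as a difference. Median differences of these lists, in this order, were 1.58, 0.77 and 1.79, and 0.11, 0.62 and -0.58 with Fos as a covariate. Their summed levels overlapped, at 6.74 to 244 against 2.31 to 95.2 FPKM, 30.5 to 162 against 6.36 to 111 FPKM, and 3.88 to 736 against 0 to 583 FPKM. The parts of Fos, epithelial content and these tissues in the calls were not tested beyond these fits.

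The calls also hung on single tumors. Leaving out X1515T, X92T or X153T, the Trp53-high tumors with high Fos, gave 722, 390 and 358 genes called higher, and a total with the lower calls of 996, 551 and 505. Leaving out X437T, the Trp53-low tumor with low Fos, gave 263 higher and 69 lower, X154T gave 140 and 41, and X2265T gave 68 and 39. Leaving out X1418T gave 45 and 8. The other 12 tumors (X738T, X1463T1, X1310T2, X149T1, X493T1, X1310T1, X149T2, X606T, X493T2, X520T, X147T and X370T) each left 7 to 18 higher and 1 to 4 lower. The genes called whichever of the 19 tumors was left out were 7 higher, among them Mir692-1, Camta2, Clec4a1, Clec4a3, Man2b1 and Wdr81, and 1 lower, Mir1938.

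Among the p53 target genes, 1 of 45 tested (2.22%) was called, against 0.449% of all genes higher. Zmat3 (Wig1, chromosome 3, 32334792 to 32366014), a p53 target that encodes a zinc finger RNA-binding protein, was higher in Trp53-high tumors. It ran from 1.19 to 2.91 with a median of 1.95 there and from 0.39 to 1.47 with a median of 0.80 in Trp53-low tumors. The groups overlapped only through X153T, at 1.19, and X437T, at 1.47. Zmat3 averaged 3.19 and 0.822 FPKM, so it passed the filter through the Trp53-high tumors. As the only called target it therefore gives the share of 2.22% no weight as a count. The difference was 1.16 (SE 0.24, adjusted p = 0.0404, limma), and it was 0.85 (SE 0.30, unadjusted p = 0.00927, adjusted p = 0.763) with Fos as a covariate. Without the Epcam-low tumors the difference was 0.97 (adjusted p = 0.114), and Zmat3 was called in 7 of 19 fits with a tumor left out (adjusted p of 0.0225 to 0.0865).

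The best known targets of p53 did not separate the groups. Mdm2 (chromosome 10, 117688875 to 117710758) ran from 3.33 to 5.66 in Trp53-high and from 3.75 to 5.59 in Trp53-low tumors, with medians of 4.03 and 4.27, a difference of -0.20 (SE 0.30, adjusted p = 0.707, limma). Cdkn1a (chromosome 17, 29090976 to 29100727), which encodes the cyclin-dependent kinase inhibitor p21, ran from 2.78 to 7.83 in Trp53-high and from 4.60 to 7.72 in Trp53-low tumors, a difference of -0.85 (SE 0.51, adjusted p = 0.325). Both differences changed sign, to 0.44 (SE 0.35) and 0.40 (SE 0.56), with Fos as a covariate, so neither direction is settled. At an unadjusted p below 0.05, 4 targets were higher (Zmat3, Pltp, Pml and Tap1) and 7 were lower (Btg2, Gadd45a, Plk2, Trp53inp1, Ddit4, Bbc3 and Perp), against 16% and 7.58% of all genes. Of these only Zmat3 was called, and the others are named after their values were seen. The median difference over the 45 targets was 0.15, against 0.16 over all genes, and it was -0.05 under upper-quartile scaling, against -0.02, and 0.22 with Fos as a covariate, against -0.06, so the list has no settled direction. Btg2, an antiproliferative gene that is both a p53 target and an immediate-early gene, had medians of 3.53 and 6.32 and a difference of -2.21 (SE 0.64, adjusted p = 0.0673), and its difference with Fos as a covariate was -0.00 (SE 0.46). Pml, the scaffold of nuclear bodies, and Tap1, a peptide transporter of antigen presentation, differed by 1.21 (SE 0.33, adjusted p = 0.0636) and 1.25 (SE 0.33, adjusted p = 0.0599).

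The reference holds promoter windows for 39 of the 50 listed targets, and the 10-base unit of the p53 consensus, of which a full response element holds a pair, was present on either strand in 28.8% of their 52 windows against 8.36% of all 32851. The unit is shown in capitals for targets whose levels did not separate the groups, within its flanking bases (RefSeq, GRCm38.p6), 5′ to 3′ on the strand of the gene. Only single units were searched for. The bases that follow the unit in the Cdkn1a line resemble a further one, which was not scored. A match is a description of these letters and not a measured site.
Cdkn1a, chr17:29090918-29090947: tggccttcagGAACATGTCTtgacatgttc
Mdm2, chr10:117710925-117710954: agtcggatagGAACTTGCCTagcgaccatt
Ccng1, chr11:40755452-40755481: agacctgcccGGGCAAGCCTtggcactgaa
Bax, chr7:45467080-45467109: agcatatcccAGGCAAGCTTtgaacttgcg
Ccng1, which encodes cyclin G, and Bax, the pore-forming effector of apoptosis, differed by 0.15 (SE 0.32, adjusted p = 0.804, limma) and 0.22 (SE 0.24, adjusted p = 0.608), and by 0.50 and -0.33 with Fos as a covariate.

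**Figure D2:**
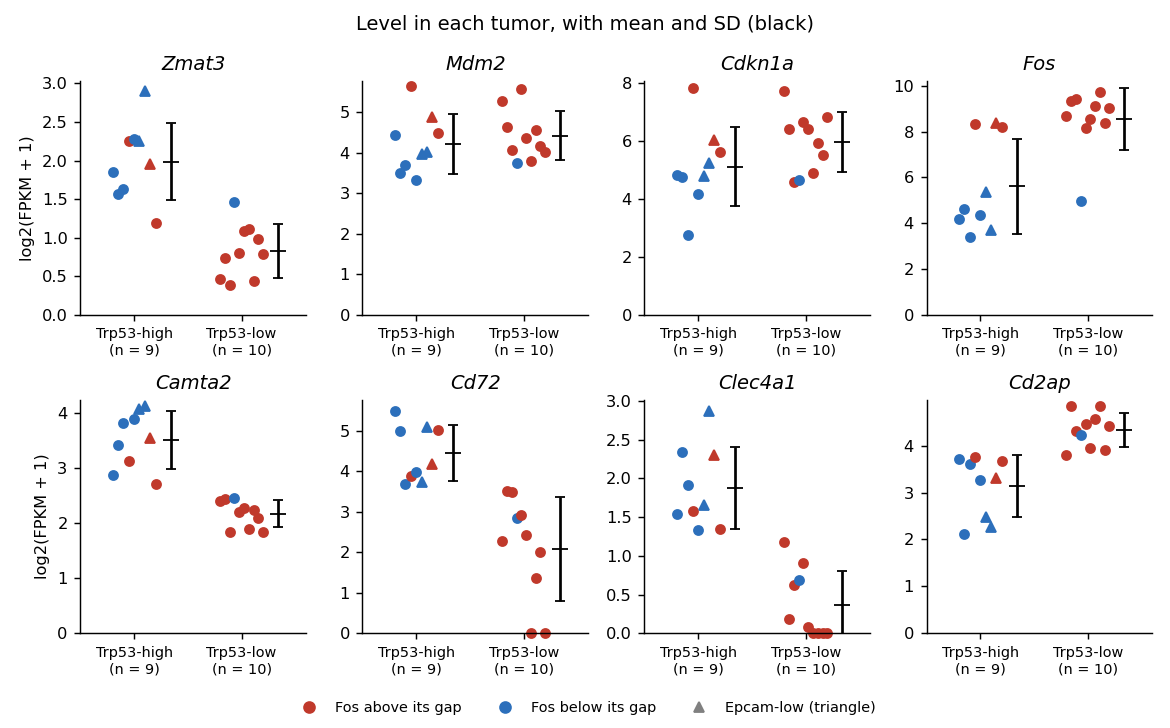
Levels, log2(FPKM + 1), of 8 genes in each Trp53-high (n = 9) and Trp53-low (n = 10) tumor, with the mean and SD in black; red points have Fos above its gap, blue points below it, and triangles are Epcam-low. Mdm2 and Cdkn1a overlap broadly, Zmat3 overlaps through 1 tumor of each group, and Camta2, Cd72, Clec4a1 and Cd2ap do not overlap.

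Regulators and partners of p53 gave no called gene among 31 tested (limma), with a median difference of -0.02. At an unadjusted p below 0.05, 4 (12.9%) were higher and 2 (6.45%) lower, both below the 16% and 7.58% of all genes. The nearest to the threshold was Usp10, which encodes a deubiquitinase that removes ubiquitin from p53. It ran from 4.37 to 5.41 in Trp53-high and from 2.81 to 4.68 in Trp53-low tumors, a difference of 1.05 (SE 0.25, adjusted p = 0.0517, limma). Ppm1d, the phosphatase that reverses p53 activation, had medians of 2.34 and 1.73 and a difference of 0.56 (SE 0.19, adjusted p = 0.1003). Atr, a kinase that signals replication stress, was listed at 0 in 4 Trp53-high tumors and in no Trp53-low tumor, with a difference of -0.92 (SE 0.34, adjusted p = 0.120). Mdm4, a p53 inhibitor, differed by -0.41 (SE 0.30, adjusted p = 0.416). Cdkn2a, whose p19Arf product inhibits Mdm2, ranged from 2.93 to 9.997 in Trp53-high and only from 6.57 to 8.52 in Trp53-low tumors, and its means differed by -0.24 (SE 0.64, adjusted p = 0.846). Trp63, a family member of p53 found in basal cells, had medians of 0.93 and 0.28 and was at 5.86 in X1515T, and Trp73 was below the filter on low values. Brca1 itself was low in both groups, with medians of 1.73 and 0.59 and a difference of 0.66 (SE 0.33, adjusted p = 0.226) that was -0.14 with Fos as a covariate.

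Genes of G2 and M phase, which p53 represses through p21, gave 0 calls among 28 members (limma). Of these, 6 (21.4%) were lower at an unadjusted p below 0.05 and none higher, against 7.58% and 16% of all genes. Their median difference was -0.12, and it was -0.69 with Fos as a covariate and -0.69 among the tumors above the Fos gap. Leaving out 1 tumor gave medians of -0.26 to 0.17, so the direction over all tumors is not settled. Their summed levels had medians of 394 FPKM in Trp53-high and 399 FPKM in Trp53-low tumors. Mki67, the proliferation marker, had medians of 2.099 and 3.82 and a difference of -1.46 (SE 0.47, adjusted p = 0.0880), and -0.83 (SE 0.61) with Fos as a covariate but -0.04 among tumors above the Fos gap. Bub1, a kinase of the spindle checkpoint, differed by -1.06 (SE 0.37, adjusted p = 0.107) and by -1.20 (SE 0.51) with Fos as a covariate. The list of G1 and S phase genes went the other way over all tumors, with a median of 0.31, and was at -0.27 with Fos as a covariate. Of its 28 tested members 0 were called, and 4 (14.3%) were higher and 1 (3.57%) lower at an unadjusted p below 0.05. Cdt1 and Cdc6, of that list, differed by 0.87 and 0.79.

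Genes on the chromosome of Trp53 made up a large part of the calls. Of the 52 called higher that are not short non-coding RNA genes, 18 (34.6%) lie on chromosome 11, which holds 8.27% of such tested genes, and none of the 9 called lower does. Rnf135 and Rnf157, of the 18, and Clec4a1, Clec4a3, Dmrta2, Fam219aos, Il21r and Zmat3, of the rest, passed the filter through the Trp53-high tumors. These genes carry no weight in the counts. The median difference of the 983 chromosome 11 genes was 0.42, against 0.14 over genes on other chromosomes. It was 0.24 against -0.04 under upper-quartile scaling, 0.07 against -0.08 with Fos as a covariate, 0.16 against -0.07 among tumors above the Fos gap, and 0.44 against 0.15 without the Epcam-low tumors. Chromosome 8, with a median of 0.43, and chromosome 4, with 0.33, were also above the median of all genes. Of their genes 5 (0.766%) and 8 (1.06%) were called higher, against 0.438% of all.

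The direct neighbor of Trp53 is Wrap53 (chromosome 11, 69561758 to 69580255), a telomerase RNA-binding protein gene on the opposite strand. The starts of the genes face each other across 103 bases, shown here because both transcripts begin at its ends (RefSeq, GRCm38.p6, plus strand, Wrap53 to the left and Trp53 to the right).
Interval, chr11:69580256-69580358: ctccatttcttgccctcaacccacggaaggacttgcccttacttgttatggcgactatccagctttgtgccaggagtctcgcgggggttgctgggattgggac
Wrap53 ran from 1.64 to 3.44 in Trp53-high and from 1.33 to 2.40 in Trp53-low tumors, with medians of 2.42 and 1.72. The groups overlapped, and the difference was 0.65 (SE 0.24, adjusted p = 0.121, limma), and 0.16 (SE 0.28) with Fos as a covariate. The protocol as given does not say whether strand was kept, so reads of adjoining genes on opposite strands may not be told apart.

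Of the 62 tested genes within 1 Mb of Trp53, 1 (1.61%) was called, against 1.83% on chromosome 11. A positive difference was found for 54, against 748 of 983 on chromosome 11 and 7289 of 11884 over all. Without adjustment, 27 (43.5%) were higher at p below 0.05 and none was lower. The shares were 30.6% and 2.44% on chromosome 11 and 16.1% and 7.64% over all. The neighbors had a median difference of 0.58, against 0.42 on chromosome 11. With Fos as a covariate it was 0.15 against 0.07, and among the tumors above the Fos gap 0.16 against 0.16. The neighbors' longest transcripts had a median GC content of 54.7%. At 51.9% to 55.8%, chromosome 11 genes had a median difference of 0.55 and other genes 0.36. The called neighbor was Polr2a, which encodes the largest subunit of RNA polymerase II and starts at 69733997. It ran from 4.41 to 5.52 in Trp53-high and from 3.13 to 4.77 in Trp53-low tumors, a difference of 0.98 (SE 0.20, adjusted p = 0.0404, limma). Tnfsf12, the gene of the cytokine TWEAK, and Cd68, a macrophage gene, lie closer and differed by 1.10 (SE 0.26, adjusted p = 0.0517) and 1.61 (SE 0.54, adjusted p = 0.0931). Sat2, which encodes an acetyltransferase and starts 41.7 kb away, had medians of 0.63 and 1.16 and a difference of -0.33 (SE 0.37, adjusted p = 0.613), so the shift near Trp53 was not shared by every gene.

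In windows of 5 Mb, 218 of which over the genome held 20 or more tested genes, the largest median difference was not at Trp53 but beyond it. The window from 75000001 to 80000000 on chromosome 11, which begins 5.42 Mb beyond the start of Trp53, ranked 1 of 218. Its median was 0.69 over 74 genes, of which 8 (10.8%) were called higher, against 0.438% of all. Close behind were windows on chromosome 8 (115000001 to 120000000), at 0.68, and chromosome 10 (80000001 to 85000000), at 0.64. Without the Epcam-low tumors the chromosome 11 window ranked 5, at 0.63. With Fos as a covariate it ranked 2, at 0.44, behind the adjoining chromosome 11 window, from 80000001 to 85000000, at 0.48. Among the tumors above the Fos gap these adjoining windows were at 0.52 and 0.59. The window that holds Trp53, from 65000001 to 70000000, had a median of 0.44 over all 19 tumors, ranked 34, and 0.13 with Fos as a covariate. The windows were examined over the whole genome and these are named for their values, so they are a description with no test.

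**Figure D3:**
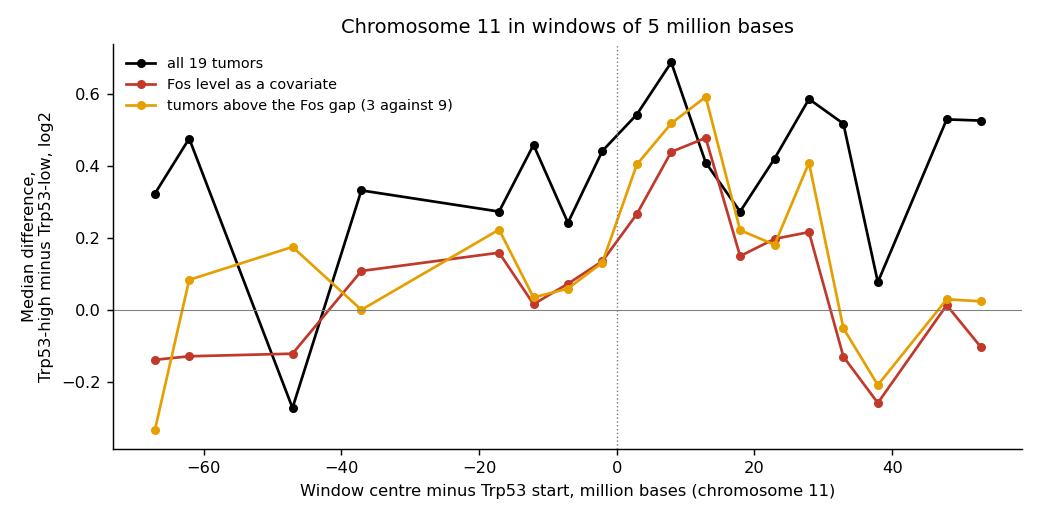
Median difference, Trp53-high minus Trp53-low in log2 units, of the tested genes in each 5 Mb window of chromosome 11 with 20 or more genes, against the distance of the window center from the start of Trp53. The line for all 19 tumors reaches 0.69 and the lines with Fos as a covariate and among tumors above the Fos gap reach 0.48 and 0.59 beyond Trp53.

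To show single tumors, each gene was set against its mean over the 23 tumors, and the median over all genes in a tumor was subtracted from the median over the genes of a region. For the window from 75000001 to 80000000 this relative level ran from -0.14 to 0.41 in Trp53-high tumors (mean 0.23 ± 0.18, SD, n = 9) and from -0.46 to -0.11 in Trp53-low tumors (mean -0.27 ± 0.13, SD, n = 10). The groups overlapped only through X606T, at -0.14, which lay below X147T and X149T2, at -0.11 and -0.12. This window was taken for its large difference between the same groups, so their near separation follows from that choice and is not a result. The tumors left out of the comparison lay between 0.02 and 0.59. For genes within 1 Mb of Trp53, a region set by position and not by difference, the groups ran from -0.23 to 0.75 and from -0.37 to 0.10. The overlaps of the window and of this region are therefore not comparable. In this region the highest values were in X520T, at 0.75, and X493T2, at 0.60, and the lowest of the Trp53-high tumors in X153T, at -0.23. X2265T and X606T, which had the highest Trp53 of all, were at -0.13 and 0.10. A tumor's order in Trp53 was thus not its order in the genes around it. Copy number was not measured in these libraries, and its part in these levels was not tested. The study inferred it from single-cell RNA of a few tumors, X147T among them. It reports changes on nearly every chromosome of the tumor cells.

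**Figure D4:**
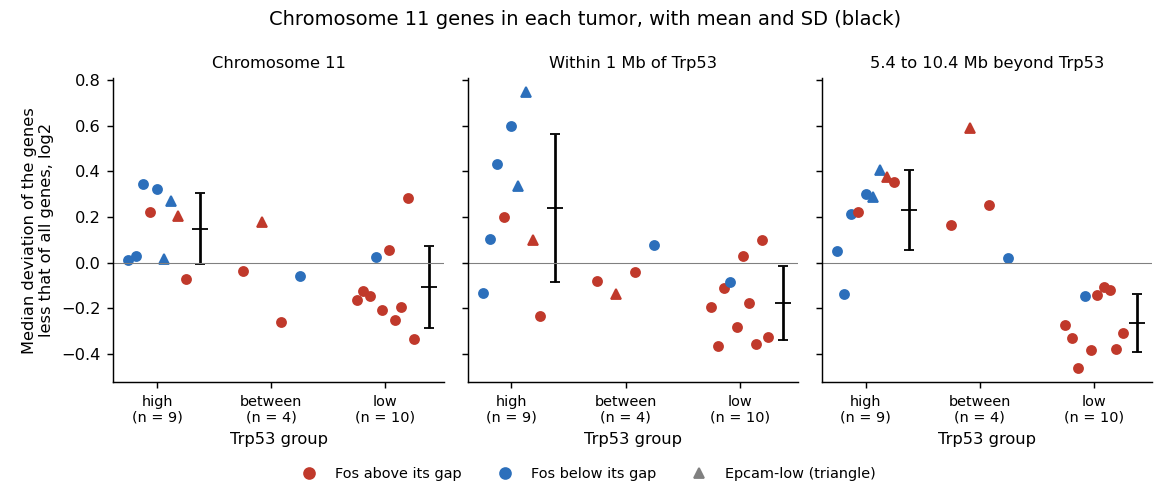
Relative level, in log2 units, of chromosome 11 genes, of genes within 1 Mb of Trp53 and of genes in the window from 75000001 to 80000000, in each Trp53-high, intermediate and Trp53-low tumor, with the mean and SD of the compared groups in black; red points have Fos above its gap, blue points below it, and triangles are Epcam-low. In the rightmost panel 1 Trp53-high tumor, X606T, lies within the range of the Trp53-low tumors. The window of that panel was taken for its difference between these groups, so their separation there is not a result.

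The groups did not overlap at all for 8 genes higher (0.0664% of those tested) and 1 gene lower (0.00831%) in Trp53-high tumors, and all 9 were called. Clec4a1, 1 of the 8, passed the filter through the Trp53-high tumors, so it carries no weight in this count. Of the 8, 3 lie on chromosome 11. Camta2 (70669463 to 70688105), a calmodulin-binding transcription activator, ran from 2.70 to 4.12 with a median of 3.54 and from 1.83 to 2.46 with a median of 2.22. Its difference was 1.34 (SE 0.21, adjusted p = 0.0109, limma), and 1.00 (SE 0.25, unadjusted p = 8.2e-04) with Fos as a covariate. Wdr81 (75440944 to 75454717), which encodes a regulator of endosomes, ran from 2.34 to 3.99 and from 0.58 to 2.14, a difference of 1.47 (SE 0.25, adjusted p = 0.0131) and 1.34 (SE 0.33) with Fos as a covariate. Fam222b (78094660 to 78156700) ran from 2.47 to 3.45 and from 1.21 to 2.38, a difference of 1.13 (SE 0.21, adjusted p = 0.0249). Of the tumors left out of the comparison, X4351T, at 3.77, X9387T and X731T had Camta2 within the Trp53-high range and X1463T2, at 2.05, within the Trp53-low range. Other chromosome 11 genes with large differences were Rnf135, a ubiquitin ligase of antiviral signaling, at 1.47 (SE 0.28, adjusted p = 0.0249), Ppp1r9b, which encodes the scaffold spinophilin, at 1.47 (SE 0.27, adjusted p = 0.0249), and Rnf157, a ubiquitin ligase gene, at 1.41 (SE 0.27, adjusted p = 0.0283). Rnf135 was listed at 0 in 6 Trp53-low tumors and Rnf157 in 4, and in no Trp53-high tumor.

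The other genes without overlap were on other chromosomes. Fkbp15, linked to endosome transport, and Arhgef11, an exchange factor for RhoA, differed by 0.98 (SE 0.18, adjusted p = 0.0249, limma) and 0.88 (SE 0.19, adjusted p = 0.0436). Cd72 and Clec4a1 are described with the immune genes. Cd2ap (chromosome 17, 42792951 to 42876665), an adaptor protein that links membrane receptors to actin, was the one lower. It ran from 2.12 to 3.76 in Trp53-high and from 3.804 to 4.85 in Trp53-low tumors, a difference of -1.21 (SE 0.25, adjusted p = 0.0404). Man2b1, a lysosomal mannosidase gene, differed by 1.498 (SE 0.25, adjusted p = 0.0131), though its groups overlapped, from 4.02 to 6.27 and from 3.03 to 4.49. Atp13a2, a lysosomal transport ATPase gene, had medians of 4.82 and 2.75 and a difference of 1.37 (SE 0.30, adjusted p = 0.0446), and 0.37 among the tumors above the Fos gap. Fam219aos, an antisense transcript whose reads may belong to its partner gene, differed by 1.44 (SE 0.31, adjusted p = 0.0436).

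Cd72 (chromosome 4, 43446462 to 43454628), a receptor of B cells and myeloid cells, ran from 3.69 to 5.49 in Trp53-high tumors and up to 3.51 in Trp53-low tumors, where it was listed at 0 in 2. The difference was 2.37 (SE 0.45, adjusted p = 0.0261, limma). The lectin receptor genes Clec4a1 and Clec4a3, neighbors and near relatives on chromosome 6 whose reads may be shared, differed by 1.51 (SE 0.26, adjusted p = 0.0131) and 1.79 (SE 0.30, adjusted p = 0.0131). Clec4a1 ran from 1.33 to 2.87 in Trp53-high tumors and reached 1.18 in Trp53-low tumors, of which 4 were listed at 0, and both lectin genes passed the filter on low values through the Trp53-high tumors. Ms4a7, Slamf9, P2ry6 and Il21r, surface proteins of myeloid or lymphoid cells, were higher by 2.32, 2.18, 1.94 and 1.34 (adjusted p of 0.0404 to 0.0485).

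The macrophage markers as a list were not called, with 0 of 19 past the threshold (limma). Without adjustment 13 of 19 (68.4%) were higher at p below 0.05, against 16% of all genes, and 1 of 19 (5.26%) was with Fos as a covariate, against 2.6%. Over all genes 0.449% were called higher. Their summed level ran from 916 to 4092 FPKM in Trp53-high and from 194 to 2260 FPKM in Trp53-low tumors, so the groups overlapped. The median difference was 1.80, and it was 0.98 with Fos as a covariate, 1.49 among tumors above the Fos gap and 1.59 without the Epcam-low tumors. Csf1r, the receptor that macrophages depend on, ran from 4.32 to 7.16 in Trp53-high and from 0.18 to 4.99 in Trp53-low tumors, a difference of 2.29 (SE 0.64, adjusted p = 0.0653). C1qa, a complement subunit made by macrophages, had medians of 8.12 and 6.38 and a difference of 2.37 (SE 0.74, adjusted p = 0.0810). Neither was listed at 0 in any tumor of either group. In bulk tumors, more cells of a type and more RNA per cell cannot be told apart. Neutrophil genes had differences of the other sign, with 6 of 8 (75%) lower at an unadjusted p below 0.05, against 7.58% of all genes. None was called, and their summed levels were 24.2 to 614 FPKM in Trp53-high and 23.9 to 1099 FPKM in Trp53-low tumors. Of 20 T and NK cell markers and 12 B and plasma cell markers, 1 each passed the filter on low values.

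Of the antigen presentation genes, class I heavy chains were among the calls. H2-D1, an MHC class I heavy chain, ran from 8.98 to 11.27 in Trp53-high and from 7.88 to 9.51 in Trp53-low tumors, a difference of 1.36 (SE 0.28, adjusted p = 0.0430, limma), and 1.52 (adjusted p = 0.0273) without the Epcam-low tumors (adjusted p of 0.0161 to 0.1001 with a tumor left out). It was the 1 of 13 class I list members (7.69%) that was called, against 0.449% of all genes. Of the 13, 10 (76.9%) were higher at an unadjusted p below 0.05, against 16% of all genes, with a median difference of 1.07. With Fos as a covariate 1 of the 13 (7.69%) was, against 2.6% of all genes, and the median difference was 0.60. H2-L and H2-T10, outside that list, were called at 3.03 (SE 0.59) and 1.20 (SE 0.26). Class I genes are near-identical copies and differ between mouse strains, and the mice were of mixed strain, so the share of reads given to each copy is uncertain. None of 7 class II genes was called, and all 7 were higher at an unadjusted p below 0.05, against 16% of all genes. Their median difference was 1.93, and 1.78 among tumors above the Fos gap. Cd74, the class II chaperone, had medians of 9.67 and 7.86. The summed class II level ran from 736 to 3931 FPKM in Trp53-high and from 43.3 to 2171 FPKM in Trp53-low tumors. Among 24 interferon response genes 6 (25%) were higher without adjustment, against 16% of all genes, and 0 were called, with a median difference of 0.65.

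Dmrta2 (chromosome 4, 109978053 to 109983687), a transcription factor gene of the developing forebrain, had the largest positive difference after H2-L among called genes other than short non-coding RNAs. It was listed at 0 in 8 of 10 Trp53-low tumors, was at 0.59 and 1.78 in the others, and ran up to 4.31 in Trp53-high tumors, with a median of 3.07. The Trp53-high tumors without it were X738T, listed at 0, and X520T, at 0.04, both Epcam-low, and the other 7 were at 2.58 or more, above every Trp53-low tumor. The difference was 2.42 (SE 0.51, adjusted p = 0.0430, limma) and 2.54 (SE 0.70) with Fos as a covariate. Among the left-out tumors it was 2.23 in X9387T, 0.72 in X731T and listed at 0 in X1463T2 and X4351T. Without the Epcam-low tumors it was 3.32. Dmrta2 averaged 8.35 FPKM in Trp53-high and 0.294 FPKM in Trp53-low tumors, so it entered the comparison through the former.

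Among the genes called lower was Akap12 (chromosome 10, 4266380 to 4359470), a scaffold protein for kinase A and C. Akap12 ran from 0.69 to 4.86 with a median of 2.29 in Trp53-high tumors and from 3.35 to 6.71 with a median of 5.50 in Trp53-low tumors. The difference was -2.63 (SE 0.49, adjusted p = 0.0249, limma) and -1.22 (SE 0.48) with Fos as a covariate. Arap2, a regulator of small GTPases, differed by -1.93 (SE 0.43), and among tumors above the Fos gap by -0.44, with values of 1.73 to 3.32 and 2.33 to 3.74. Gm7334, a predicted gene, was listed at 0 in 5 Trp53-high tumors and in no Trp53-low tumor, and its difference of -3.06 (SE 0.66) was -0.37 among tumors above the Fos gap. Cops2, a subunit of the COP9 signalosome, differed by -1.36 (SE 0.30) over all tumors and by -1.01 (adjusted p = 0.544, limma) above the Fos gap, where its 3 Trp53-high tumors lay at 4.02 to 4.44 and its 9 Trp53-low tumors at 4.66 to 5.76. Bcar3, Tmem87b and 5730507C01Rik differed by -1.19, -0.91 and -1.43 (adjusted p of 0.0380 to 0.0440).

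Immediate-early genes, the set to which Fos belongs, were 31 in number. Of these, 23 (74.2%) were lower at an unadjusted p below 0.05 and 1 was called, against 7.58% and 0.0831% of all genes. The called gene was Ier3, an early-response inhibitor of apoptosis, which ran from 5.33 to 8.82 in Trp53-high and from 7.66 to 9.65 in Trp53-low tumors, a difference of -1.84 (SE 0.38, adjusted p = 0.0404, limma). Fos had medians of 4.61 and 8.86 and a difference of -2.93 (SE 0.73, adjusted p = 0.0532). The median difference of the list was -1.34, and it was -0.02 with Fos as a covariate and -0.26 among tumors above the Fos gap. Both settings were defined by a gene of this set, so the change follows in part from that choice. Heat shock genes were at -0.93, and at 0.06 with Fos as a covariate. Of 13, 0 were called (limma) and 6 (46.2%) were lower at an unadjusted p below 0.05, against 7.58% of all genes. Hspa1a, an inducible Hsp70 gene, had medians of 6.52 and 10.41.

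Epithelial genes gave 0 calls among 28 (limma), with 7 (25%) lower at an unadjusted p below 0.05, against 7.58% of all genes. Their median difference of -1.18 was 0.45 without the 3 Epcam-low tumors. Those tumors were set apart by an epithelial gene and all are Trp53-high, so the change follows in part from that choice. The summed level of the epithelial genes ran from 88.0 to 6359 FPKM in Trp53-high and from 2233 to 7883 FPKM in Trp53-low tumors. Krt7, a keratin of luminal epithelium, had medians of 6.86 and 8.99, a difference of -3.05 (SE 0.96, adjusted p = 0.0833) and of -1.19 (adjusted p = 0.289) without the Epcam-low tumors. Mesenchymal and fibroblast lists were at 0.44 and 0.70, and at -0.27 and -0.14 without those tumors. The milk protein gene Csn3 had medians of 2.65 and 7.76 and a difference of -3.29 (SE 1.26, adjusted p = 0.128).

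**Figure D5:**
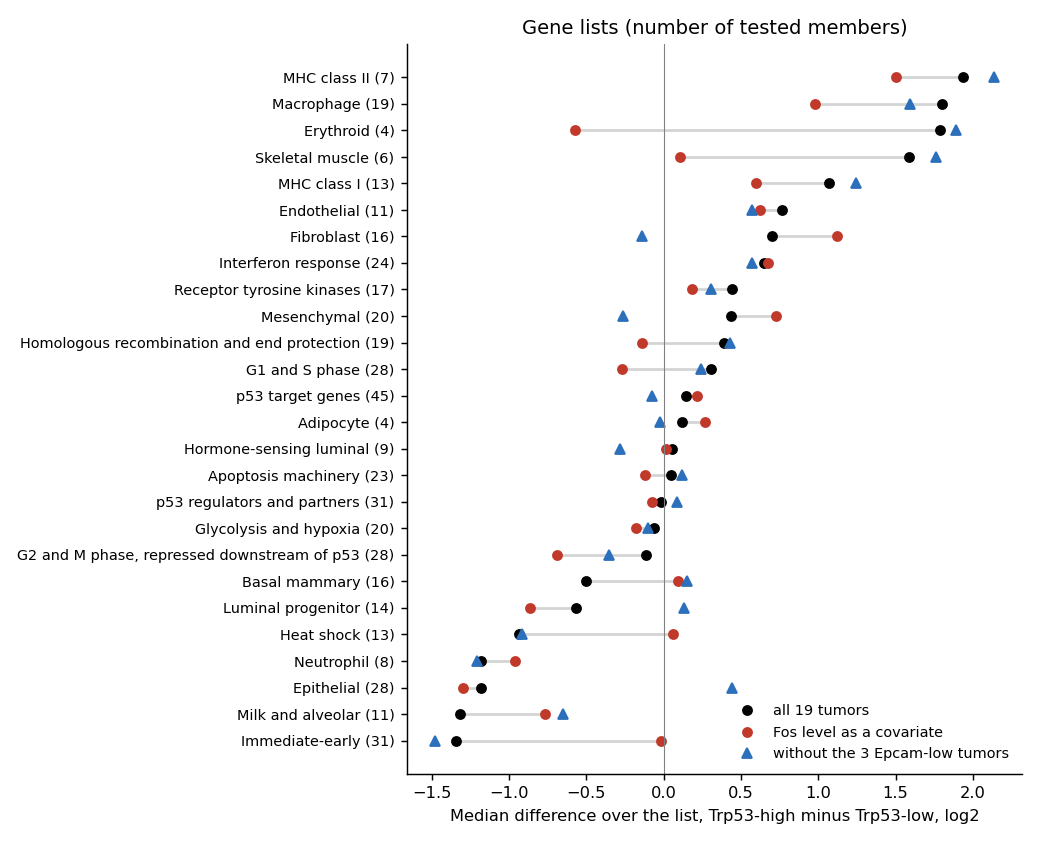
Median difference, Trp53-high minus Trp53-low in log2 units, of each gene list with 4 or more tested members, whose number is in brackets, over all 19 tumors (black), with Fos as a covariate (red) and without the 3 Epcam-low tumors (blue). The immediate-early list moves from -1.34 to -0.02 with Fos as a covariate, the epithelial list from -1.18 to 0.45 without the Epcam-low tumors, and the macrophage list is at 1.80, 0.98 and 1.59. Fos is an immediate-early gene and Epcam an epithelial gene, so the changes of those lists follow in part from these choices.

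Of the 64 called genes, 3 are microRNA genes. Such RNAs are shorter than the fragments of this protocol, so their FPKM describes reads at the gene and not the mature microRNA. Their mature sequences are given because they identify the called loci, with the seed, bases 2 to 8, in capitals (RefSeq, GRCm38.p6), and no seed is shared.
mmu-miR-1938, chr12:40222782-40222803, minus strand: cGGUGGGAcuuguaguucgguc
mmu-miR-692, chr17:6895259-6895279, minus strand: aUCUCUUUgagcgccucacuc
mmu-miR-7115-5p, chr11:70438256-70438279, plus strand: uCGGGGGUuguggugccgaauugu
mmu-miR-7115-3p, chr11:70438297-70438318, plus strand: aCUUGGUCcccugcccccacag
Mir1938 was listed at 0 in 8 of 9 Trp53-high tumors and was at 5.42 in X92T, and it was at 7.59 to 11.15 in 9 Trp53-low tumors and listed at 0 in X437T. The fitted difference was -7.57 (SE 1.08, adjusted p = 0.00812, limma) and -4.74 (SE 1.15) with Fos as a covariate. An exact 0 in FPKM can be a failed estimate, so no fold is given. Mir1938 lies within Ifrd1, an interferon-related regulator gene, which had medians of 5.61 and 7.50 and a difference of -1.11 (SE 0.49, adjusted p = 0.175), and 0.47 with Fos as a covariate. Mir692-1 was at 4.30 to 7.12 in Trp53-high tumors and listed at 0 in 7 of 10 Trp53-low tumors, with a highest value of 5.05. Mir7115 lies within Arrb2, a beta-arrestin gene on chromosome 11. It was listed at 0 in all 10 Trp53-low tumors and in 3 Trp53-high tumors, with a median of 9.92 over the 9, so it passed the filter through the Trp53-high tumors alone. Arrb2 itself differed by 1.40 (SE 0.36, adjusted p = 0.0565).

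The differences also moved with base composition. In 5 equal sets of the tested genes by the GC content of the longest transcript, the median difference was -0.31, 0.02, 0.22, 0.38 and 0.45 from the lowest to the highest GC content. With Fos as a covariate the medians were -0.18, -0.07, -0.03, -0.01 and -0.00. Called genes had a median GC content of 55.4% where higher and of 45.2% where lower, against 50.1% over all. Chromosome 11 genes were above genes of other chromosomes in every set, with medians of -0.17 against -0.31 in the lowest and 0.59 against 0.43 in the highest. Among tumors above the Fos gap they were at 0.13 to 0.17 across the sets against -0.12 to -0.03. In 5 equal sets by transcript length the medians were 0.13, 0.22, 0.22, 0.18 and 0.03 from shortest to longest. They rose from -0.26 to 0.09 with Fos as a covariate, and from -0.33 to 0.20 among tumors above the Fos gap. In the latter, chromosome 11 genes were at -0.06 in the shortest set and 0.51 in the longest, against -0.35 and 0.19 for other genes. The parts of base composition and transcript length in the calls were not tested.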

How the data were processed

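Total RNA of 23 frozen mammary tumors was sequenced after NEBNext Ultra library preparation, 1 library per tumor. The study's methods name more than 1 sequencing instrument and more than 1 read length for its bulk libraries. Their part in the differences was not tested. The authors deposited 1 table of log2(FPKM + 1) for 14535 gene symbols. Per the labels, reads were trimmed with Trimmomatic 0.35, aligned to mm10 with TopHat2 2.0.13 and quantified with Cufflinks 2.2.1. The study's methods name another TopHat release, so the version is uncertain. FPKM keeps neither counts nor depth, and a difference on the log2(FPKM + 1) scale understates changes of low genes. Symbols were matched to GENCODE M21 (GRCm38), 99.2% with a position.

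Groups were formed from the measured Trp53 level, not from labels. The members and gene lists were chosen with earlier results of these data known. The 12040 genes whose FPKM averaged at least 1 across all tumors, Trp53 left out, entered a two-sided limma-trend fit (limma 3.58.1, R 4.3.3) with Benjamini-Hochberg adjustment over all of them, and an adjusted p below 0.05 was called. The fit was repeated with Fos as a covariate and within the tumors above the Fos gap. The procedure was tested on simulated data. Gene lists were described by counts and medians, with no set test. Named genes were Trp53, Wrap53, Mdm2, Mdm4, Cdkn1a, Cdkn2a, Trp63, Trp73, Brca1, Fos and Epcam, the 15 largest differences in each direction among called genes other than short non-coding RNAs, the 10 called genes in each direction with the widest gap between groups, and per list up to 6 called members or, with none called, the 2 with the largest difference. Others were chosen after their values were seen. A called gene that the rule includes is not reported here. Alternatives were a pseudocount of 0.1, other filters, upper-quartile scaling, an exact rank-sum test, Trp53 as a continuous level, 1 tumor per title number, title number as a random block, and leaving out tumors.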

Additional observations from a re-analysis of the deposited data

Results flagged for a closer look

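Over 140 groups of 9 or 10 tumors examined for the genes described, 1 tumor stood far from the rest in 13 cases, where chance alone, at about 1 in 20 groups, gives 7. X437T, the Trp53-low tumor with low Fos, was apart from its group in Fos, at 4.98 where the next lowest was 8.16, in Btg2, at 2.88 against 5.79, in Hspa1a, at 6.04 against 9.31, in Ifrd1, at 4.54 against 6.38, and in Mir1938, listed at 0 against 7.59. The other Trp53-low tumors that stood apart were X154T in Epcam, at 6.97 against 8.71, X147T in Wdr81, at 0.58 against 1.46, and X370T in Dmrta2, at 1.78 against 0.59. Among the Trp53-high tumors, X1515T was apart in Trp63, at 5.86 against 2.11, and in Man2b1, at 4.02 against 5.26. X153T was apart in Bcar3, at 4.21 against 3.51, X738T in the neutrophil gene Retnlg, at 3.11 against 1.43, and X92T in Mir1938, at 5.42 where the other 8 were listed at 0.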

How the results depend on the processing

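Most choices moved the number of calls from 54 genes higher and 10 lower, and where no reason is given the cause was not tested. The counts of genes called higher and lower were 18 and 4 with a pseudocount of 0.1, 66 and 17 with no filter on low values, 65 and 18 with a mean FPKM of 5 or more, 31 and 40 under upper-quartile scaling, 9 and 1 without the Epcam-low tumors, 1 and 0 with 1 tumor per title number (8 against 8), 8 and 1 with title number as a random block, 97 and 35 with Trp53 as a continuous level over 23 tumors, and 22 and 1 by an exact rank-sum test, whose smallest possible p is 2.17e-05. They were 0 and 0 with Fos as a covariate and among the tumors above the Fos gap. With Fos as a covariate and without the Epcam-low tumors, a setting chosen after seeing the data, they were 1 and 0. Leaving out 1 tumor at a time gave 7 to 722 higher and 1 to 274 lower. Of the 54 genes, 31 were also called under upper-quartile scaling, 18 by the rank-sum test, 8 with the block and 6 without the Epcam-low tumors, and of the 10 lower, 10, 1, 1 and 1. Among tumors above the Fos gap, 3 genes were called higher with no filter, and 1 higher and 1 lower without the Epcam-low tumors. No paired analysis was possible because the compared groups share no title number.

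The median difference of the immediate-early list was -0.0165 with Fos as a covariate, -0.26 above the Fos gap and 0.0069 without the Epcam-low tumors and with Fos as a covariate. In that last setting the G2 and M phase list was at -0.99, and genes within 1 Mb of Trp53 were 0.13 above all genes, against 0.42. Leaving out a tumor gave 0.35 to 0.48 for these neighbors and 0.23 to 0.31 for chromosome 11 against 0.26. Differences of uncalled genes that changed sign included those of Mdm2 (0.071 with 1 tumor per title number, 0.44 with Fos as a covariate, 0.52 above the Fos gap, 0.44 with Fos and without the Epcam-low tumors), Cdkn1a (0.40, 0.39 and 0.51 in the last 3 settings), Hspa1a (0.26, 0.11 and 0.29) and Ifrd1 (0.47, 0.12 and 0.39). Bax also changed sign with Fos as a covariate, as given above. With Fos as a covariate Brca1 was at -0.14 and Ddit4 at 0.085, and without the Epcam-low tumors as well they were at -0.21 and 0.64, Btg2 at 0.37 and Mdm4 at 0.009. Plk2 was at 0.041 above the Fos gap. With 1 tumor left out Cdkn2a ran from -0.57 without X520T to 0.31 without X1515T, and Trp63 from -0.28 without X1515T to 0.69 without X149T2. Depth is not known from FPKM, so low genes could not be weighted by their reads.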
